A study of Mus musculus with 8 samples.

Results

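The genes examined here are 9 homeobox transcription factors that give the forebrain, the midbrain and the border between midbrain and hindbrain their identity: Six3, Six6, Emx2, Otx1, Otx2, Dmbx1, En1, En2 and Gbx2. They were taken by name from the deposited RNA-seq count table, which holds 32567 genes, and all 9 were found in it. They were taken by symbol alone, with no limit on a measured value. Counts were read in all 4 RNA-seq libraries: wild-type (WT) parental mouse embryonic stem cells (ESC), ESC homozygous for the targeted null allele Hdh ex4/5 of the Huntington's disease gene orthologue Htt (Htt-null), and the cells obtained from either line by embryoid body culture with retinoic acid (RA-DIFF). ESC had gone through 4 passages off feeder cells, embryoid bodies were grown for 8 days with 5 µM retinoic acid from day 4, and RA-DIFF cells were collected 2 hours after plating. Each condition has 1 library, so no difference between conditions has a replicate check and no call below rests on a test unless one is named. How many clones stand behind each line is not given in the sources used here. Cells were sequenced in bulk, so fewer cells of a type and less RNA per cell cannot be told apart.

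The libraries held between 63617410 and 110569127 counts, and a gene without a count may still have had up to 3, which is 0.0271 to 0.0472 on the counts-per-million scale (CPM). The targeted gene was read first, since its level bears on the labels. Htt was at 164 CPM in WT ESC and at 114 CPM in Htt-null ESC, but at 74.3 CPM in the RA-DIFF library labelled WT and at 96.3 CPM in RA-DIFF cells labelled Htt-null. In ESC its order followed the labels and in RA-DIFF it went against them. The per-condition values that the study's supplement gives for part of the genes also follow the opposite assignment of the RA-DIFF libraries. RA-DIFF libraries are therefore called by their labels throughout, and if the labels were exchanged every RA-DIFF ratio between genotypes below would keep its size and take the opposite sign. The ratios of RA-DIFF over ESC would change in size as well, since each ESC library would be set against the other RA-DIFF library. The allele and the exons behind the Htt reads cannot be seen in a count per gene.

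In the embryo, the anterior end of the neural plate is divided by transcription factors that each mark a territory. Six3 and Six6 act in the most anterior forebrain and the eye field, and Emx2 patterns the dorsal telencephalon. Otx2 is needed for forebrain and midbrain to form at all, Otx1 works with it later, and Dmbx1 is a related homeobox gene of the dorsal midbrain. En1 and En2 mark the midbrain-hindbrain border, where the Otx2 territory meets that of Gbx2, a factor of the anterior hindbrain, and Otx2 and Gbx2 repress each other there. Otx2 is also active in the epiblast and Gbx2 in pluripotent stem cells, and retinoic acid is best known for posteriorizing neural tissue, which makes these genes a reading of the regional character of the differentiated cells.

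Start-site sequences are shown for Dmbx1 and Six3, which differed in opposite directions between the RA-DIFF libraries, and for Otx2, the most abundant of the 9 factors per length. They come from the RefSeq promoter table of build GRCm38.p6, in which 7 of the 9 genes were matched, with 10 windows between them, and not Otx1 or En2. Only bases outside annotated exons are printed, 5′ to 3′ on the strand of the gene, and capitals mark CpG pairs. The Dmbx1 stretch is chr4:115939927-115940176 on the minus strand, directly before the gene, with 23 CpG pairs in 250 bases. The Six3 stretch is chr17:85620584-85620789 on the plus strand, with 9 CpG pairs in 206 bases. It ends 44 bases before the RefSeq start and lies inside the annotated span of the Six3 gene, not before it. The Otx2 stretch is chr14:48667645-48667894 on the minus strand, directly before the gene, with 6 CpG pairs in 250 bases.
Dmbx1: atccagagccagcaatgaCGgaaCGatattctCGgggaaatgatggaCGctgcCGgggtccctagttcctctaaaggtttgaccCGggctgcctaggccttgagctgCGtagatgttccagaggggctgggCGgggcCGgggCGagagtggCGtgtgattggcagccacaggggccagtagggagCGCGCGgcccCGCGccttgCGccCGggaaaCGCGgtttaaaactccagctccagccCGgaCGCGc
Six3: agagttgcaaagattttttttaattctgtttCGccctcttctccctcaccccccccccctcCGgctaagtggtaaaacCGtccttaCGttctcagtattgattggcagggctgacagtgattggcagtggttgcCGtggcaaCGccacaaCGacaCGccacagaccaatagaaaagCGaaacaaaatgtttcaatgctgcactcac
Otx2: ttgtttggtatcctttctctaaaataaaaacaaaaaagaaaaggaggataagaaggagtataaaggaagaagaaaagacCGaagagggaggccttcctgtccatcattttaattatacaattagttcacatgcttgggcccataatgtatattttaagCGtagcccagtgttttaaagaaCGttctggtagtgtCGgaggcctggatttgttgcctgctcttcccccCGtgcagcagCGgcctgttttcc
The median over all 32851 windows of the table was 6 CpG pairs in the 250 bases before the start. The Dmbx1 stretch lay at the 86.7th percentile of them and the Otx2 stretch at the 49.6th. Emx2 had 24 CpG pairs in its window, En1 19, Gbx2 18, Six6 17 and Six3 10, and the other Otx2 windows had 8 to 14. The 4 motifs searched on either strand of the 250 bases were TAATCC, which OTX and related bicoid-type factors bind, TAATTA, a core site of many homeodomains that reads the same on the other strand, AGGTCA, the nuclear receptor half-site, and the TATA box TATAAA. They are found in 6.25%, 4.84%, 14% and 12.4% of all windows of this length. The printed Otx2 stretch holds TAATTA and TATAAA, which do not overlap in it, a further Otx2 window holds TAATCC and TAATTA, and the other 8 windows hold none of the 4. A match describes the letters of the window and not a bound site.

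The 9 genes lie on 8 chromosomes of GRCm38. Six3 (ENSMUSG00000038805) spans bases 85613608 to 85629302 of chromosome 17 on the plus strand, Six6 (ENSMUSG00000021099) 72939892 to 72944899 of chromosome 12 on the plus strand, and Emx2 (ENSMUSG00000043969) 59458372 to 59465357 of chromosome 19 on the plus strand. Otx1 (ENSMUSG00000005917) spans 21994764 to 22002897 of chromosome 11, Otx2 (ENSMUSG00000021848) 48657679 to 48667644 of chromosome 14, and Dmbx1 (ENSMUSG00000028707) 115915119 to 115939926 of chromosome 4, all on the minus strand. En1 (ENSMUSG00000058665) spans 120602418 to 120607992 of chromosome 1 on the plus strand, Gbx2 (ENSMUSG00000034486) 89927956 to 89931179 of the same chromosome on the minus strand, and En2 (ENSMUSG00000039095) 28165694 to 28172166 of chromosome 5 on the plus strand.

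The reads behind each gene, which are not scaled for its length, set how precisely it was measured. Otx2 had 7855 reads in WT and 4443 in Htt-null ESC, Gbx2 had 969 and 569, En2 had 299 and 316, and Dmbx1 had 127 and 153. Otx1 and En1 were counted at 16 to 44 reads, and Six3, Six6 and Emx2 at 1 to 14 reads. In RA-DIFF cells every one of the 9 genes had at least 51 reads in either library. Otx2 had 34152 reads in the library labelled WT and 16774 in the library labelled Htt-null. The 51 reads are those of Dmbx1 under the label Htt-null. The plot of levels by library shows these ranges.

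**Figure D1:**
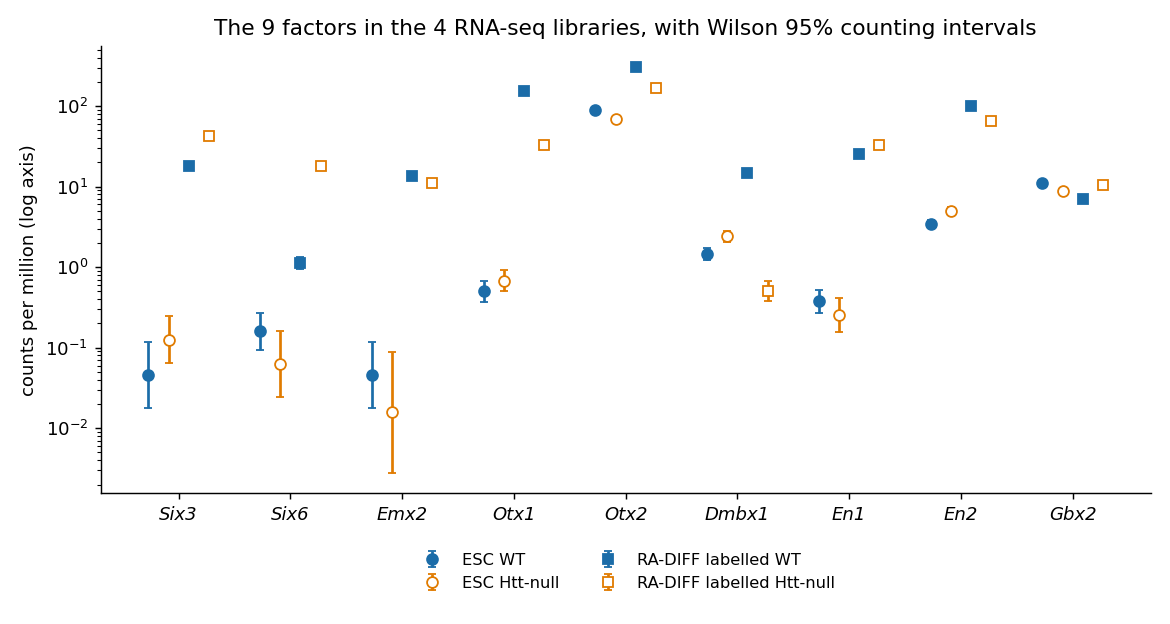
Level in CPM on a log axis for each of the 9 factors in the 4 RNA-seq libraries, with filled blue symbols for WT or labelled WT, open orange symbols for Htt-null or labelled Htt-null, circles for ESC and squares for RA-DIFF. Bars are Wilson 95% intervals of the count, covering counting error only. Otx2 is at 69.8 CPM or above in all 4 libraries, Gbx2 stays between 7.09 and 11.0 CPM, and Dmbx1 is the gene whose squares lie on either side of its circles.

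Differentiation with retinoic acid was compared first, each RA-DIFF library against the ESC library of the same label. In what follows levels in CPM are on the library total, while folds and log2 ratios are scaled with the TMM factors and so differ slightly from the quotient of the CPM printed. A log2 ratio was taken between TMM-scaled log2 CPM with a prior count of 2, the interval in brackets is the exact 95% counting interval of the ratio without a prior, and a gene was called higher or lower when its log2 ratio passed 0.75 in size and its mean log2 CPM over the 4 libraries was above 0. All 9 factors passed that limit on expression. Six3, Six6, Emx2, Otx1 and En1 passed it through their RA-DIFF reads and could then hardly be called lower. For these genes the shares over all genes tested are not a like comparison. In cells labelled WT, 8 of the 9 factors were called higher in RA-DIFF and 0 lower, where 33.9% of the 15492 genes tested were called higher and 26.1% lower. In cells labelled Htt-null, 7 were called higher and 1 lower, against 34.3% and 24.8% of all genes tested. The median log2 ratio of the 9 factors was 4.82 in cells labelled WT and 5.62 in cells labelled Htt-null, beside 0.12 and 0.17 over all genes tested.

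The factors of the most anterior forebrain went from near the counting floor to clear levels. Six3 was at 0.0455 CPM in WT and 0.126 CPM in Htt-null ESC, and at 18.1 and 42.7 CPM in the RA-DIFF libraries labelled WT and Htt-null. Its fold was 387 (151 to 1420) in cells labelled WT and 357 (181 to 827) in cells labelled Htt-null. The width of both intervals comes from the 4 and 8 reads of the ESC libraries. Emx2 had 4 and 1 reads in ESC and 1511 and 1133 in RA-DIFF, in the same order. Its fold was 292 (114 to 1074) in cells labelled WT and rests on a single ESC read in cells labelled Htt-null, where the interval ran from 134 to 29670. Six6, which acts in eye and hypothalamus, had the most unequal increase of the 3. It went from 14 to 124 reads in cells labelled WT, a fold of 6.85 (3.94 to 12.9), and from 4 to 1803 reads in cells labelled Htt-null, a fold of 299 (116 to 1097). The 2 intervals of Six6 do not overlap. With the RA-DIFF labels exchanged its log2 ratios, here 2.62 and 7.78, would be 6.64 and 3.76.

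The OTX genes and their relative Dmbx1 differed among themselves. Otx1 was at 0.50 and 0.676 CPM in WT and Htt-null ESC and at 154 and 32.7 CPM in RA-DIFF. Its log2 ratio was 8.16 (7.80 to 8.69) in cells labelled WT and 5.62 (5.24 to 6.14) in cells labelled Htt-null, which would be 5.99 and 7.80 with the labels exchanged. Otx2, already abundant in ESC at 89.3 and 69.8 CPM, reached 309 and 166 CPM in RA-DIFF, with log2 ratios of 1.75 (1.72 to 1.79) and 1.32 (1.27 to 1.37). Both OTX genes were thus higher in either RA-DIFF library than in either ESC library, Otx1 by the wider margin. Dmbx1 was at 1.44 and 2.41 CPM in ESC and at 14.8 and 0.505 CPM in RA-DIFF. Its 2 RA-DIFF libraries lay on opposite sides of the ESC range, with a log2 ratio of 3.29 (3.05 to 3.59) in cells labelled WT and -2.13 (-2.67 to -1.71) in cells labelled Htt-null. With the labels exchanged they would be -1.46 and 2.62, still on opposite sides.

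Both engrailed genes were higher after differentiation. En1 rose from 0.375 to 25.6 CPM in cells labelled WT and from 0.252 to 33.0 CPM in cells labelled Htt-null, with log2 ratios of 5.97 (5.56 to 6.60) and 6.99 (6.41 to 7.92). En2 rose from 3.40 to 99.1 CPM and from 4.97 to 66.1 CPM, with log2 ratios of 4.82 (4.66 to 5.00) and 3.80 (3.64 to 3.97). Gbx2 was the one factor called in neither line. It was at 11.0 and 8.94 CPM in WT and Htt-null ESC and at 7.09 and 10.6 CPM in RA-DIFF, with log2 ratios of -0.67 (-0.81 to -0.54) and 0.31 (0.16 to 0.46). All 4 libraries of Gbx2 lay within a narrow range, the one labelled WT in RA-DIFF being the lowest.

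**Figure D2:**
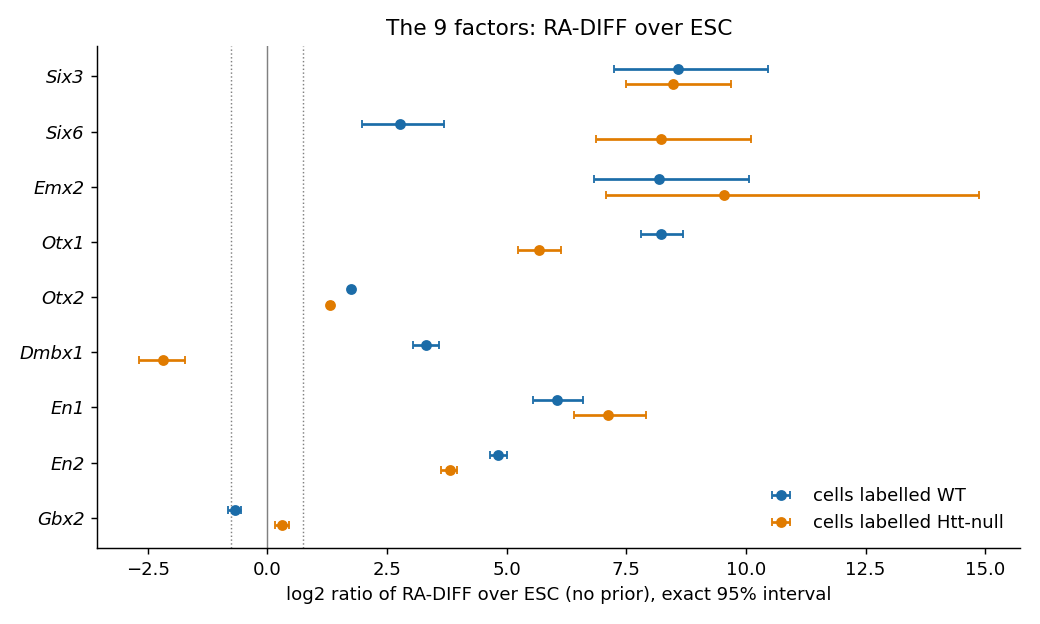
Log2 ratio of RA-DIFF over ESC, without a prior count, for each of the 9 factors, in cells labelled WT (blue) and labelled Htt-null (orange). Bars are exact 95% counting intervals and dotted lines mark a log2 ratio of 0.75 in either direction. Six3, Emx2, Otx1, Otx2, En1, En2 and Six6 lie to the right of the dotted line in both colours, Gbx2 lies between the lines, and Dmbx1 lies on opposite sides.

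The RA-DIFF libraries were then compared with each other, to ask how the forebrain and midbrain factors stood in differentiated cells of the 2 labels. Of the 9 factors, 2 were called higher in the library labelled Htt-null (Six3 and Six6), 3 were called lower (Otx1, Otx2 and Dmbx1), and the other 4 passed no limit. In an exact test with an assumed dispersion of 0.1 the calls of Six3 and Otx2 were lost, and that of Otx2 also at a log2 limit of 1. Over all genes tested, 11.7% were called higher and 8.99% lower. The median log2 ratio of the 9 factors was -0.23 and that of all genes tested -0.01, so the factors were spread to either side rather than shifted together. The 9 factors summed to 642 CPM in the library labelled WT and to 381 CPM in the library labelled Htt-null, a total in which Otx2 weighs most.

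Toward the anterior end, Six3 and Six6 stood higher under the label Htt-null. Six6 had 124 reads in the library labelled WT and 1803 in the library labelled Htt-null, or 1.12 CPM (0.941 to 1.34) against 17.9 CPM (17.1 to 18.7). The TMM-scaled fold was 16.6 (13.8 to 20.01) and the log2 ratio 4.02, the largest positive one among the 9 factors. Six3, its close relative, had 1998 and 4309 reads, or 18.1 CPM (17.3 to 18.9) and 42.7 CPM (41.4 to 44.0), a TMM-scaled fold of 2.45 (2.33 to 2.59) and a log2 ratio of 1.29. Six3 and Six6 were thus higher in the same library, by unequal amounts. Emx2 had 1511 and 1133 reads, with a log2 ratio of -0.23 (-0.34 to -0.12), and was not called.

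Otx1, Otx2 and Dmbx1 were lower in the library labelled Htt-null. Dmbx1 had 1631 reads in the library labelled WT and 51 in the library labelled Htt-null, a TMM-scaled fold of 28.1 (21.3 to 37.9) in favour of the former and a log2 ratio of -4.75, the largest in size of the 9. Otx1 had 17019 and 3304 reads, or 154 CPM (152 to 156) and 32.7 CPM (31.6 to 33.9). The TMM-scaled fold was 4.53 (4.36 to 4.70) in favour of the library labelled WT, a log2 ratio of -2.18. Otx2 had 34152 and 16774 reads, a TMM-scaled fold of 1.79 (1.76 to 1.82) in favour of the library labelled WT, with a log2 ratio of -0.84 that lay close to the limit for a call. The 3 related genes therefore kept one direction, with sizes that ranged from the smallest call to the largest.

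None of the border genes was called between the RA-DIFF libraries, though each differed beyond its counting interval. En1 had 2832 and 3334 reads with a log2 ratio of 0.42 (0.35 to 0.49), and En2 had 10953 and 6668 reads with one of -0.53 (-0.57 to -0.49). The 2 engrailed genes, close relatives whose proteins can stand in for each other, went in opposite directions beyond their counting intervals, both short of the limit for a call. Gbx2 had 784 and 1065 reads, a log2 ratio of 0.63 (0.49 to 0.76).

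**Figure D3:**
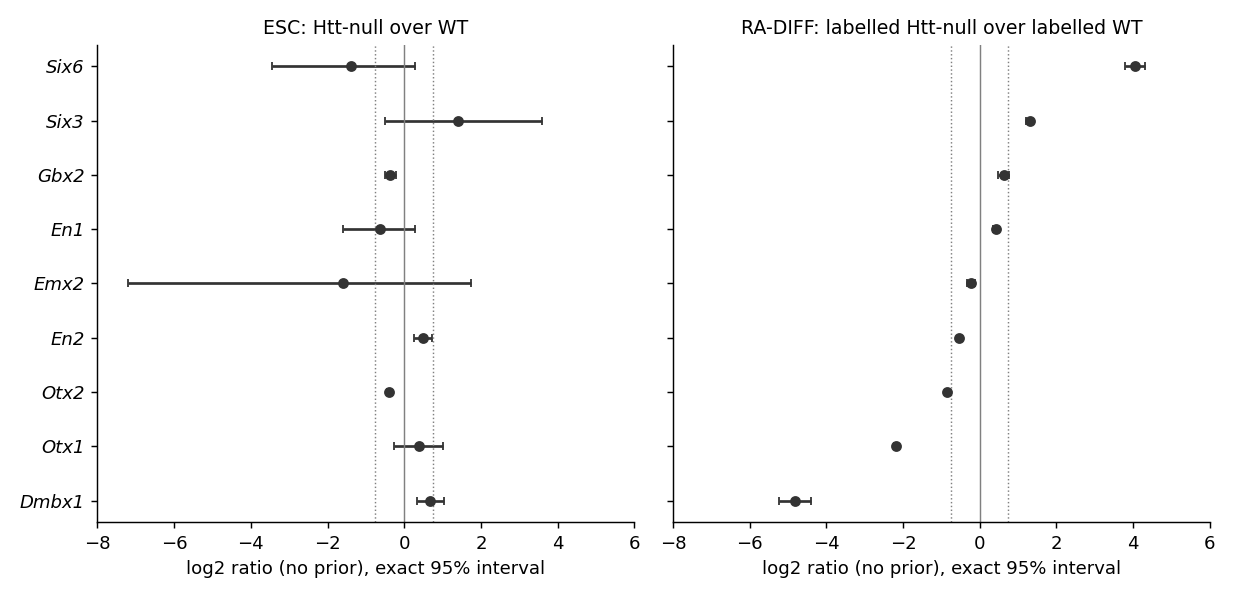
Log2 ratio between genotypes, without a prior count, for each of the 9 factors in ESC (left) and in RA-DIFF (right), the library of the Htt-null line or label over that of the WT line or label. Bars are exact 95% counting intervals and dotted lines mark a log2 ratio of 0.75 in either direction. In RA-DIFF the points run from Dmbx1 at the left through Otx1 and Otx2 to Six3 and Six6 at the right, while in ESC the points past the lines are those with the widest intervals.

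Between the ESC genotypes the factors past the limit were those with the fewest reads. Of the 9 factors, 1 was called higher in Htt-null ESC (Six3) and 2 lower (Six6 and Emx2), where 5.14% of all genes tested were called higher and 3.47% lower. Each of the 3 calls rests on at most 14 reads and has a counting interval that includes 0. Six3 had 4 reads in WT and 8 in Htt-null ESC, a log2 ratio of 1.09 (-0.49 to 3.59). Six6 had 14 and 4 reads, a ratio of -1.14 (-3.46 to 0.27), and Emx2 had 4 and 1 reads, a ratio of -0.87 (-7.21 to 1.75). A difference in these 3 genes was not detectable at this depth in ESC.

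Among the factors with more reads in ESC, Otx2 was at 89.3 CPM (87.4 to 91.3) in WT and 69.8 CPM (67.8 to 71.9) in Htt-null ESC, a log2 ratio of -0.41 (-0.46 to -0.36). Gbx2 was likewise lower in Htt-null ESC, with a log2 ratio of -0.36 (-0.51 to -0.21). En2 and Dmbx1 were higher there, with log2 ratios of 0.49 (0.26 to 0.72) and 0.67 (0.33 to 1.03). Otx1 and En1 had log2 ratios of 0.36 and -0.59 with intervals that include 0. These 6 ratios stayed short of the limit for a call, and the median of the 9 factors was -0.36 beside -0.04 over all genes tested. Each ESC library also served as the base of an RA-DIFF over ESC ratio, so the comparisons share libraries and are not independent.

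The order of the genes by level was read per kilobase (kb) of exon. In both ESC libraries the order of the CPM per kb began with Otx2 (21.2 and 16.6 in WT and Htt-null), then Gbx2 (5.06 and 4.11), En2 (0.961 and 1.40) and Dmbx1 (0.247 and 0.411). Otx1 and En1 followed without differing beyond their counting intervals. Six3, Six6 and Emx2 closed the order, and no neighbours among these 3 were apart beyond their counting intervals, though Six3 stood at 0.210 (0.0504 to 0.670) of the Six6 level in WT ESC. Before differentiation, then, transcripts of Otx2 and Gbx2, the antagonists of the midbrain-hindbrain border, were the 2 most abundant of the set in both lines.

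In the RA-DIFF library labelled WT the order per kb was Otx2 (73.2 CPM per kb), Otx1 (28.4) and En2 (28.0), En1 (9.76), Emx2 (4.55), Six3 (3.32) and Gbx2 (3.26), Dmbx1 (2.52) and Six6 (0.280). Otx1 did not differ from En2, nor Six3 from Gbx2, beyond the counting interval. Under the label Htt-null it was Otx2 (39.4), En2 (18.7), En1 (12.6), Six3 (7.84), Otx1 (6.04), Gbx2 (4.85), Six6 (4.46), Emx2 (3.74) and Dmbx1 (0.0863), with every neighbour in that order apart beyond the counting interval. Otx1 thus stood beside En2 and directly after Otx2 under one label and below Six3 under the other.

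**Figure D4:**
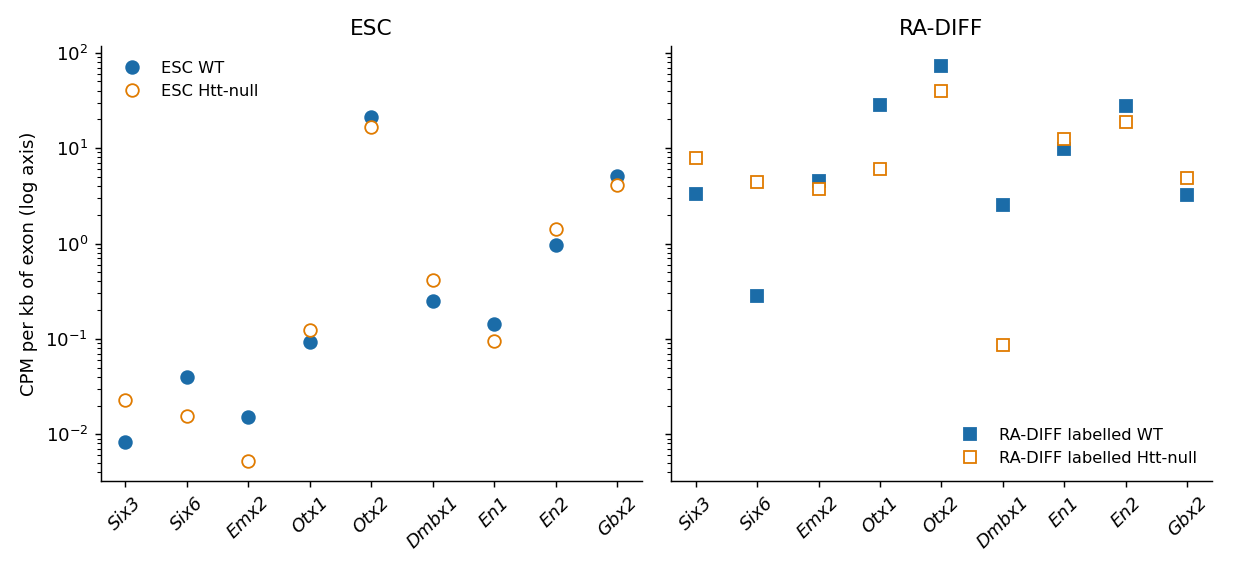
CPM per kb of exon on a log axis for each of the 9 factors in the ESC libraries (left) and the RA-DIFF libraries (right), filled blue for WT or labelled WT and open orange for Htt-null or labelled Htt-null. Otx2 is the highest of the 9 factors in every library, from 16.6 to 73.2 CPM per kb, and Dmbx1 at 0.0863 is the lowest point of the RA-DIFF panel.

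Ratios of 2 factors within a library do not depend on how the libraries were scaled. Otx2 exceeded Otx1 per kb 229-fold (171 to 316) in WT ESC and 133-fold (98.4 to 184) in Htt-null ESC, but 2.58-fold (2.53 to 2.63) and 6.52-fold (6.28 to 6.77) in the RA-DIFF libraries labelled WT and Htt-null. The gap between the 2 OTX genes closed on differentiation and was wider in the library labelled Htt-null. Six3 exceeded Six6 11.9-fold (9.89 to 14.3) in the RA-DIFF library labelled WT and 1.76-fold (1.67 to 1.86) in the one labelled Htt-null. En2 exceeded En1 2.87-fold (2.75 to 2.99) and 1.48-fold (1.42 to 1.55) in the same libraries. The genes of both pairs stood closer together in the library labelled Htt-null.

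Pairs from different territories moved by unequal amounts. Six3 stood at 0.117 (0.112 to 0.122) of the Otx1 level per kb in the RA-DIFF library labelled WT and at 1.298 (1.24 to 1.36) in the library labelled Htt-null. Six6 stood at 0.111 (0.0918 to 0.133) of the Dmbx1 level in the former and at 51.6 (39.1 to 69.6) times it in the latter. The order within these 2 pairs was thus exchanged between the RA-DIFF libraries. Otx2, by contrast, stayed above Six3 under both labels, with Six3 at 0.0453 (0.0433 to 0.0474) and 0.199 (0.193 to 0.206) of its level, and Otx1 stayed above Six6. Otx2 over Gbx2 was 4.18 (3.91 to 4.47) and 4.03 (3.69 to 4.402) in WT and Htt-null ESC, which do not differ beyond counting error, and 22.5 (20.9 to 24.2) and 8.12 (7.64 to 8.65) in the RA-DIFF libraries labelled WT and Htt-null. The 2 border antagonists were thus furthest apart in the RA-DIFF library labelled WT. Otx2 over En2 moved less, from 2.61 (2.56 to 2.67) under the label WT to 2.11 (2.05 to 2.17) under the label Htt-null, and En2 over Gbx2 was 8.59 (7.99 to 9.25) and 3.85 (3.61 to 4.11).

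Other transcription factors of forebrain, eye field and midbrain were read from a list of 26 genes, of which 22 passed the limit on expression. Over all genes tested, 33.9% were called higher and 26.1% lower with differentiation in cells labelled WT, and 34.3% and 24.8% in cells labelled Htt-null. Between the RA-DIFF libraries these shares were 11.7% higher and 8.99% lower. With differentiation, 20 of the 26 were called higher and 1 lower under either label, with medians of 5.10 and 5.28 over the genes that passed. Many of them passed through their RA-DIFF reads and could then hardly be called lower. Of the 4 genes under the limit, Hesx1 went from 39 reads to 1 in cells labelled WT and from 4 to 0 in cells labelled Htt-null, Rax from 39 to 6 and from 36 to 12, Pitx3 from 21 to 0 and from 20 to 1, and Emx1 from 48 to 80 and from 29 to 1. Between the RA-DIFF libraries, 8 were called higher under the label Htt-null and 7 lower, with a median log2 ratio of 0.31. The genes called higher included factors of the ventral forebrain. Nkx2-1, the factor of hypothalamus and ventral telencephalon, had 37 and 736 reads (log2 ratio 4.41), and the genes Dlx1, Dlx2 and Dlx5 of ventral forebrain interneuron precursors had log2 ratios between 1.75 and 1.88. Pax2 and Pax8 were higher by 0.94 and 1.12. The genes called lower included Barhl1 and Barhl2, homeobox factors of the diencephalon, at -3.09 and -2.51, Pax5, a factor of the midbrain-hindbrain border, at -2.64 (9280 and 1303 reads), and Lhx2, Pax6, Lmx1a and Tcf7l2 between -1.05 and -0.76. These genes of the list lay on both sides as Six3 and Six6 did of Otx1, Otx2 and Dmbx1, and the plot of both sets together gives their order.

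**Figure D5:**
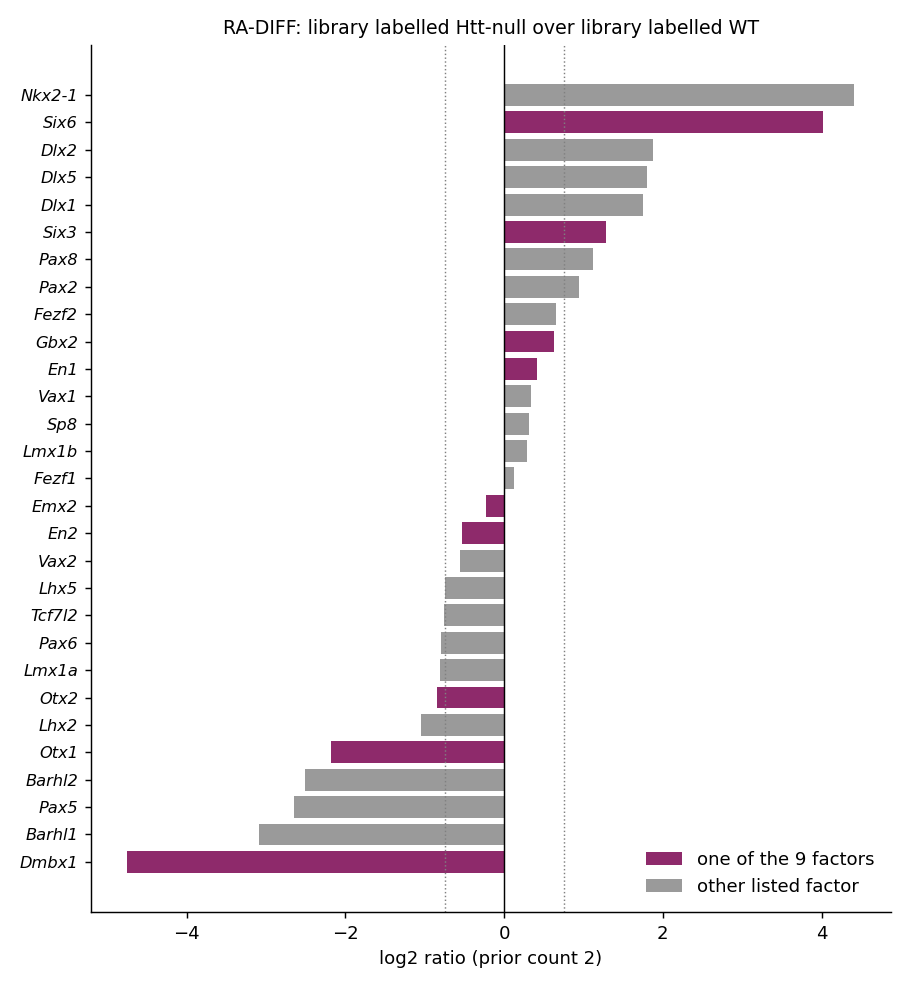
Log2 ratio between RA-DIFF libraries, labelled Htt-null over labelled WT (prior count 2), for the 9 factors (purple) and for 20 of the 22 other listed forebrain, eye field and midbrain factors above the limit on expression (grey). Dotted lines mark a log2 ratio of 0.75 in either direction. Nkx2-1 (4.41) and Six6 (4.02) stand at one end and Dmbx1 (-4.75) and Barhl1 (-3.09) at the other.

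Signals of the isthmic organizer, which sits at the border that En1, En2 and Gbx2 mark, were a list of 5 genes, 4 of them above the limit on expression. For this list and the next, the shares over all genes tested were those given with the list of 26 factors. With differentiation 2 were called higher and 1 lower in cells labelled WT, and 3 and 1 in cells labelled Htt-null. Between the RA-DIFF libraries 1 was called higher, the FGF signalling modulator Il17rd at 1.12, and none lower, with a median of 0.72. Fgf8, the main ligand of that border, had 42 reads in the library labelled WT and 138 in the other, a log2 ratio of 1.84 (1.39 to 2.44), and was not called because it was under the limit on expression. Fgf17 had 271 and 396 reads (0.73), the FGF antagonist Spry1 had 11332 and 16391 (0.72), and the ligand Wnt1 had 850 and 707, a log2 ratio of -0.08 (-0.23 to 0.07). Of 12 hindbrain and anterior Hox factors, 8 passed the limit on expression. With differentiation, 7 were called higher in cells labelled WT and 8 in cells labelled Htt-null, with 0 lower. All but 1 of these genes had at most 21 reads in an ESC library, passed the limit through their RA-DIFF reads, and could then hardly be called lower. Between the RA-DIFF libraries 1 was called higher and 5 lower, from Hoxb1 at -2.83 to Hoxb3 and Hoxb4 at -1.24, with a median of -1.24. In ESC these 3 lists had medians between -0.58 and 0.22, with 5 higher and 3 lower calls among the 26 factors, 0 and 0 among the isthmic signals, and 2 and 1 among the hindbrain and Hox factors, beside 5.14% higher and 3.47% lower over all genes tested. The calls of Dlx5, Fezf1, Barhl1, Hoxb1 and Hoxb2 among them rest on at most 14 reads in a library, have counting intervals that include 0, and concern genes that passed the limit on expression through their RA-DIFF reads.

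Otx2 also belongs to the epiblast, and pluripotency genes were read beside it. Over all genes tested, 11.7% were called higher and 8.99% lower between the RA-DIFF libraries, and 5.14% and 3.47% in ESC. With differentiation the shares were 33.9% and 26.1% in cells labelled WT, and 34.3% and 24.8% in cells labelled Htt-null. Of 8 formative epiblast genes, 4 were called lower in RA-DIFF cells labelled Htt-null and 0 higher, with a median of -0.78. Pou3f1, a partner of OTX2 in the epiblast, had 2553 and 276 reads there (-3.01). With differentiation 4 were called higher and 3 lower in cells labelled WT, and 3 and 5 in cells labelled Htt-null. If the RA-DIFF labels were exchanged, these counts would be 3 and 5, and 4 and 2. In ESC 0 were called higher (1 when scaled by library size alone) and 1 lower, Fgf5, which had 351 reads in WT and 54 in Htt-null ESC (-2.26). All 10 naive pluripotency factors were called lower with differentiation under both labels. Their summed level was 3052 and 3122 CPM in WT and Htt-null ESC and 58.8 and 36.6 CPM in the RA-DIFF libraries labelled WT and Htt-null. Between the RA-DIFF libraries 7 were called lower and 1 higher, with a median of -1.76, and in ESC 0 were called higher and 1 lower, with one of -0.09. Otx2, at 309 and 166 CPM in RA-DIFF, was lower in the same library as the 7 naive and 4 formative genes called lower there. Of those formative genes, Pou3f1 and Lef1 were called higher with differentiation in cells labelled WT (log2 ratios 0.78 and 3.10), and Fgf5 and Foxd3 lower. The 1 naive factor called higher went the other way. The part of these genes in the difference of Otx2 was not tested.

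Markers of other cell types moved with the RA-DIFF difference too, where 11.7% of all genes tested were called higher and 8.99% lower under the label Htt-null. Of 12 neuron markers, 9 were called lower in the library labelled Htt-null and 0 higher, with a summed level of 3074 CPM in the library labelled WT and 1400 CPM in the other. Of 12 mesenchyme markers, 11 were called higher and 0 lower, with 666 and 2469 CPM. The 10 neural progenitor markers had 2 higher calls, both lost when scaled by library size alone, and 3 lower calls, a median of 0.04 and summed levels of 4706 and 5764 CPM. Among 8 anterior endoderm and head organizer genes, 2 were called higher (Foxa2 at 2.69 and Hhex at 1.91) and 1 lower (Lhx1 at -1.67), with summed levels of 37.2 and 26.0 CPM. No defining marker of neurons, progenitors or mesenchyme was at 0 in an RA-DIFF library. The part of these markers in the differences of Otx1, Otx2, Dmbx1, Six3 and Six6 was not tested. With differentiation under either label, at least 10 of the 12 neuron markers, 9 of the 10 progenitor markers and 12 of the 12 mesenchyme markers were called higher. Over all genes tested, 33.9% were called higher and 26.1% lower in cells labelled WT, and 34.3% and 24.8% in cells labelled Htt-null. Genes of these lists with few ESC reads, such as Dcx, Fabp7 and Lum, passed the limit on expression through RA-DIFF. They could then hardly be called lower. In ESC the neuron list had 3 higher and 0 lower calls, the progenitor list 2 and 1, the mesenchyme list 1 and 7 and the anterior endoderm list 1 and 1. The shares over all genes tested in ESC were 5.14% higher and 3.47% lower. In those lists Dcx, Fabp7, Lum and Lhx1 were called on at most 15 reads in a library, with intervals that include 0. With differentiation the anterior endoderm list had 2 higher and 3 lower calls in cells labelled WT, and 3 and 2 in cells labelled Htt-null.

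Several of the 9 genes have annotated transcripts within 20 kb. The study's methods name no strand option for the counting and state that defaults applied to programs where nothing else was given. The strand that was counted cannot be checked in a count per gene. Reads of a gene and of an overlapping antisense transcript may therefore not have been told apart. Six3os1 runs on the opposite strand of Six3 on chromosome 17 and overlaps the Six3 gene by 4791 bp. It had 24 and 20 reads in WT and Htt-null ESC and 8317 and 22775 in the RA-DIFF libraries labelled WT and Htt-null, a log2 ratio of 1.64 between the latter beside 1.29 for Six3. Otx2os1, the opposite-strand transcript before Otx2, had 28 and 28 reads in ESC and 592 and 316 in RA-DIFF, a ratio of -0.72 beside -0.84 for Otx2. Emx2os had 117 and 79 reads in RA-DIFF, -0.37 beside -0.23 for Emx2. Between the RA-DIFF libraries the opposite-strand transcripts had the sign of their partner in these 3 pairs.

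At Six6 the neighbour went another way with differentiation. The antisense gene 4930447C04Rik, which overlaps Six6 by 883 bp on chromosome 12, had 6954 and 4757 reads in ESC and 69 and 344 in RA-DIFF. It fell by 6.97 and by 4.38 on the log2 scale with differentiation in cells labelled WT and Htt-null, while Six6 rose, and its ratio between the RA-DIFF libraries was 2.46 beside 4.02 for Six6. Near Otx1, the same-strand gene Ehbp1 had 10583 and 5632 reads in RA-DIFF, a ratio of -0.72 beside -2.18. Within En2 the unclassified transcript RP23-358F24.3 had 221 and 107 reads in RA-DIFF, and near En1 the lincRNA RP24-358J4.2 had 83 and 169, both with 0 reads in ESC. At Gbx2, D130058E05Rik overlaps by 946 bp on the other strand and had 607 and 512 reads in ESC and 310 and 237 in RA-DIFF, a ratio of -0.20 between the latter beside 0.63 for Gbx2, and Asb18 had 56 to 80 in the 4 libraries. The single transcript near Dmbx1, 6430628N08Rik, had at most 1 read in a library. The remaining 6 neighbours, which are noncoding, unclassified or pseudogenes near Otx2, Six3 and Six6, had at most 60 reads in a library.

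The genes with the profile most like each factor were found among 16685 genes with at least 100 reads in their highest library, by the Euclidean distance between centred log2 CPM over the 4 libraries. With 4 libraries such a distance is a description, and near zero in ESC it depends on the prior count. Nearest to Gbx2 were Bcar3 (0.02), Ski and Rasl11b (0.06 each), and nearest to En1 were Fap (0.05), Agtr2 (0.06) and A730056A06Rik (0.12). Otx2 had Dpp6 (0.05), Filip1 (0.09) and Aplp1 (0.10), and En2 had Kcna6 (0.10), Lrp8os3 and Ntng2 (0.22 each). Six3 had Plat (0.17), Nfia (0.29) and Mlc1 (0.41), Otx1 had Mab21l1 (0.22), Gjd2 (0.35) and Samd3 (0.36), and Emx2 had Ildr2 (0.22), Aqp4 (0.25) and Wnt1 (0.25). Six6 and Dmbx1 had no near profile by this measure. Their closest genes lay at 0.84 to 0.97 (Akr1c14, Fmod and H19) and at 0.78 to 1.22 (Rn7sk, Tlx3 and Pou4f1).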

How the data were processed

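RNA-seq was read from 4 of the 8 samples; the 4 small RNA libraries were not used here. The authors sequenced poly-A-plus RNA as strand-specific 50 bp paired-end libraries, aligned reads with TopHat2 2.0.14 to GRCm38.p4, counted them on GENCODE genes with HTSeq 0.6.1 in the intersection-nonempty mode and deposited raw counts, without normalization or pooling. Every sample column was assigned to its sample by name. With 1 library per condition the calls rest on no test and no p-value is given. TMM factors over the 4 libraries and log2 CPM (prior count 2) came from edgeR 4.0.16 in R 4.3.3, and tables, intervals and figures from scipy 1.17.1, numpy 2.4.6, matplotlib 3.10.9 and pandas 2.3.3 in Python 3.11.15. CPM was taken on the library total, with Wilson intervals; ratios have exact Clopper-Pearson intervals. Both are 95% intervals that hold counting error alone, as PCR copies of a molecule are not independent. A gene was called past a log2 ratio of 0.75 with mean log2 CPM above 0, which 15492 genes and all 9 factors passed. The study's methods add an assumed dispersion, which was an alternative here. Positions and exon lengths were those of GENCODE vM21 on GRCm38, in which 32304 of 32567 genes were found. Named genes are the 9 factors, Htt, annotated genes within 20 kb, the genes of 9 lists and the 3 nearest profiles of each factor. The genes and lists were chosen with earlier results of these data known. Some listed genes are counted in their lists but not reported here by name. Alternatives were the library size alone, DESeq2 1.42.0 size factors, a prior count of 0.5, a log2 limit of 1, no limit on expression, edgeR's exact test with an assumed dispersion of 0.01 or 0.1, which compares libraries and not conditions, the counting interval and exchanged RA-DIFF labels.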

Additional observations from a re-analysis of the deposited data

Results flagged for a closer look

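In 5 results the ratio had opposite signs in the 2 lines or at the 2 stages while both counting intervals lay away from 0. Otx1, Six6 and En1 also had opposite signs between genotypes in ESC and RA-DIFF, with ESC intervals that include 0. With 1 library per condition these differences were not tested. For differentiation, Dmbx1 had a log2 ratio of 3.29 in cells labelled WT and -2.13 in cells labelled Htt-null, a difference of -5.43, and Gbx2 had -0.67 and 0.31, a difference of 0.98. Between genotypes by the labels, Dmbx1 had 0.67 in ESC and -4.75 in RA-DIFF, again a difference of -5.43, since the same 4 counts enter both. En2 had 0.49 in ESC and -0.53 in RA-DIFF, a difference of -1.02, and Gbx2 had -0.36 and 0.63, a difference of 0.98. If the RA-DIFF labels are exchanged, Dmbx1 still differs in sign between the lines on differentiation, while Gbx2 no longer does, and Dmbx1, En2 and Gbx2 have the same sign in ESC and RA-DIFF. The exchange also sets Otx2 apart, which is then at -0.41 in ESC and 0.84 in RA-DIFF. Six3 is then at 1.09 and -1.29 and Emx2 at -0.87 and 0.23, each with an ESC interval that includes 0.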

How the results depend on the processing

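Of 36 log2 ratios, 36 under a prior count of 0.5, 35 under DESeq2 size factors and 31 under the library size alone stayed within their counting intervals, and no called ratio changed sign under them. Shifts reached 0.84, 0.05 and 0.07 on the log2 scale. Exchanging the RA-DIFF labels gave Otx1 2.18, Otx2 0.84, Six3 -1.29, Six6 -4.02 and Dmbx1 4.75 between genotypes, and Dmbx1 -1.46 and 2.62 with differentiation in cells labelled WT and Htt-null, where Six6 went from 2.62 and 7.78 to 6.64 and 3.76 and Otx1 from 8.16 and 5.62 to 5.99 and 7.80. It turned the factors called lower with differentiation to 1 and 0, and the higher share of RA-DIFF calls over all genes from 56.6% to 43.4%. In ESC no factor was called by the exact test with a dispersion of 0.01 or 0.1 or where the counting interval, an alternative added after seeing the data, had to exclude 0 (0 higher, 0 lower), and 1 was lower at a log2 limit of 1. In RA-DIFF, Otx2 lost its call at a limit of 1 and at a dispersion of 0.1 (2 lower), and Six3 at the latter (1 higher). Over all genes tested, higher and lower calls were 797 and 537 in ESC and 1817 and 1393 in RA-DIFF. They were 458 and 286, and 1296 and 897, at a limit of 1, and 152 and 100, and 815 and 526, at a dispersion of 0.1. With no limit on expression they were 5217 and 2943, and 4204 and 4384. With differentiation, lower calls went from 4051 and 3847 to 2673 and 2466 at a dispersion of 0.1, and without the limit on expression calls were 10162 higher and 8674 lower in cells labelled WT and 9567 and 9945 in cells labelled Htt-null. Causes were not tested. The quasi-likelihood and DESeq2 tests were not run, since 1 library per condition leaves no spread within a condition, and an additive model of genotype and stage, which leaves 1 residual degree of freedom, was not run either. Leaving out a library would leave a condition empty. Depth limits Six3, Six6 and Emx2 in ESC, at 1 to 14 reads.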
